A study of Mus musculus with 6 samples.

Results

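The non-clustered delta protocadherins are cell-surface adhesion proteins of the cadherin superfamily, and their transcripts were examined in mouse cortex with stabilised β-catenin. The members were the 10 genes Pcdh1, Pcdh7, Pcdh8, Pcdh9, Pcdh10, Pcdh11x, Pcdh17, Pcdh18, Pcdh19 and Pcdh20, found by gene symbol among the 47794 genes of the deposited table. All 10 were measured, and every one had a mean of at least 100 scaled reads over both groups. RNA had been taken from the primary somatosensory cortex of C57BL/6 mice at postnatal day 14, with 3 libraries in each of 2 groups. The overexpression group (Ovp) carried a floxed exon 3 of Ctnnb1, the gene of β-catenin, together with Nex-Cre. The control group (Ctrl) carried the same floxed allele without Cre. Nex-Cre is expressed from the Neurod6 locus and recombines in excitatory neurons of the forebrain, so inhibitory neurons, glia and vessels in the tissue were not its targets. Loss of exon 3 removes the residues that mark β-catenin for degradation. Both groups thus shared the floxed allele, and a group value covers all exons of Ctnnb1, so it does not check the genotype.

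Delta protocadherins mediate weak adhesion between cells that carry the same member, and many are expressed in patterns that differ between cortical areas and layers. Their cytoplasmic tails lack the β-catenin binding region of classical cadherins and contact other partners. The delta-1 members, with the longer extracellular part, are Pcdh1, Pcdh7, Pcdh9 and Pcdh11x, and their tails can bind protein phosphatase 1. The delta-2 members are Pcdh8, Pcdh10, Pcdh17, Pcdh18 and Pcdh19, several of which bind the WAVE complex, a regulator of actin branching. Pcdh20 is often set apart from both subfamilies.

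The authors deposited 1 mean per gene and group, in reads scaled for the size of each library and here called scaled reads. All genes together came to 18602579 scaled reads for Ovp and 19016749 for Ctrl. Markers of excitatory and inhibitory neurons, astrocytes, oligodendrocytes, microglia and vessels were detected in both groups, and none of those listed was at 0. A group mean carries no spread, and the labels do not say that each library came from a separate mouse. Values of single libraries, called A, B and C within a group in order of scaling factor, could be recovered for some genes from the last digits of the group means. This gave library values for 4 members, namely Pcdh8, Pcdh11x, Pcdh18 and Pcdh20. For the 6 others, with means above 1000, only the group means are given. Libraries stood apart in places. In control cortex the Y-linked gene Kdm5d had 670 scaled reads in library A, 0 in library B and 0 in library C, and several genes known for hippocampal expression were low in control library C.

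Per kilobase of annotated exon, the members covered a wide range, with the same order in both groups. Pcdh9, linked to social and sensory behaviour in mutant mice, was highest at 553 scaled reads per kb in overexpression and 617 in control cortex. Pcdh1, known in humans for its role in airway epithelium, followed at 537 scaled reads per kb in overexpression and 595 in control cortex. Pcdh7, which binds the phosphatase inhibitor SET, had 343 scaled reads per kb in overexpression and 357 in control cortex. These were the highest members per kb, and all 3 belong to the delta-1 subfamily. The order rests on GENCODE M21 exon lengths, and the annotation used by the authors is not given. In scaled reads per gene the delta-2 member Pcdh10 had 4021 in overexpression and 4178 in control cortex. That was above Pcdh7, at 3642 and 3781, and in overexpression cortex also above Pcdh9, at 3753. Pcdh10, which takes part in axon growth and in the removal of synapses, had 253 scaled reads per kb in overexpression and 263 in control cortex. Pcdh17, which acts at synapses of corticostriatal axons, had 145 scaled reads per kb in overexpression and 163 in control cortex. Pcdh8, Pcdh19 and Pcdh20 lay close together. Pcdh8 had 123 scaled reads per kb in overexpression and 135 in control cortex. Pcdh19 had 117 scaled reads per kb in overexpression and 127 in control cortex. Pcdh20 had 106 scaled reads per kb in overexpression and 97.2 in control cortex. The spread of Pcdh20 between control libraries, 41.6 to 131 scaled reads per kb, overlapped that of Pcdh8, 111 to 148. Pcdh11x and Pcdh18 closed the order. Pcdh11x had 42.1 scaled reads per kb in overexpression and 48.3 in control cortex. Pcdh18 had 39.9 scaled reads per kb in overexpression and 41.9 in control cortex. The library values of these last 2 genes overlapped in overexpression cortex, at 34.9 to 49.1 and 36.7 to 45.9 scaled reads per kb. They did not overlap in control cortex, at 45.3 to 49.9 and 39.5 to 43.5. In control cortex Pcdh11x also overlapped its other neighbour Pcdh20, at 45.3 to 49.9 against 41.6 to 131 scaled reads per kb. In overexpression cortex Pcdh11x had 34.9 to 49.1 scaled reads per kb. Pcdh20 had 41.1 to 151 there, a range that spans all 3 combinations of library values matching its mean. Only combination 3 reaches down to the Pcdh11x values, so overlap there depends on which combination holds. For neighbours without library values it is not known whether they differ beyond their spread.

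**Figure D1:**
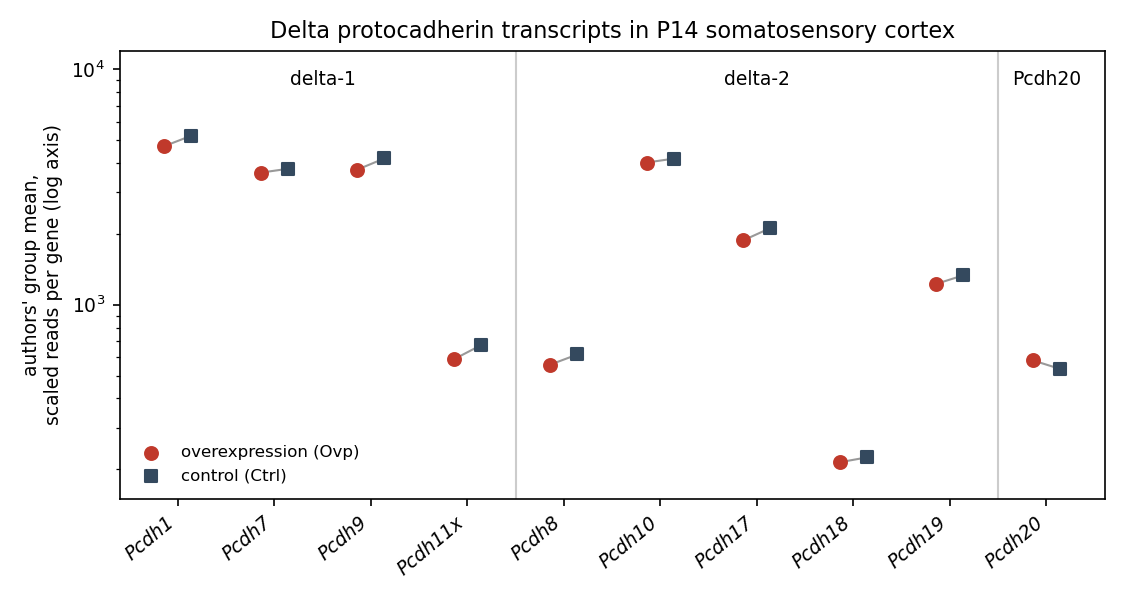
Authors' group means of the 10 delta protocadherins in scaled reads per gene, on a log axis, with overexpression cortex as red circles and control cortex as blue-grey squares joined by a line for each gene. The red circle is lower than the square for 9 genes and higher for Pcdh20; group means have no error bars.

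Sequences before the start sites are shown because 7 of the 8 members with one held the same promoter word there. Upstream stretches of 250 bases were read from RefSeq promoters of build GRCm38.p6 for 8 members, and none was used for Pcdh1 or Pcdh11x. The word CCAAT, the core of the CCAAT box bound by nuclear factor Y, was searched on both strands. It stood before 7 of the 8 start sites, against 33.8% of 32851 promoters in the same table. The longer word GCCAAT, which holds CCAAT, stood before 5 of 8, against 13.5% of promoters. The first listed promoter of each member was read, while the background counted every listed promoter and was not matched for base composition. The words CCAAT and GCCAAT were chosen after the sequences had been read, and a match is a description, not a shown binding site. In 6 members the match nearest the start site began 32 to 82 bases before it, and in Pcdh20 it began 185 bases before it. Pcdh7 had none in this window. Stretches of 60 bases around the match nearest the start site are given 5′ to 3′ on the strand of the gene, with the match in capitals as CCAAT or its reverse complement ATTGG.
Pcdh9, chr14:93890730-93890789, minus strand: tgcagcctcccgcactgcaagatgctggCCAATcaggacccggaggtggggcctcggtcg
Pcdh8, chr14:79771349-79771408, minus strand: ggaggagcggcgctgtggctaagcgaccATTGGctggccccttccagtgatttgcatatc
Pcdh10, chr3:45378320-45378379, plus strand: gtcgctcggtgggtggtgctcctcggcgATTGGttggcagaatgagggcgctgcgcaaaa
Pcdh17, chr14:84443477-84443536, plus strand: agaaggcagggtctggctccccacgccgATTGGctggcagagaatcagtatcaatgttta
Pcdh18, chr3:49757317-49757376, minus strand: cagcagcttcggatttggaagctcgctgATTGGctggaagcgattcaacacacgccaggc
Pcdh19, chrX:133689027-133689086, minus strand: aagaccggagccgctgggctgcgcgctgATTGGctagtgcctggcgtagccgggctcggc

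Pcdh20 also differed from these in base composition. Its 250 upstream bases held 3 CpG dinucleotides and 42.4% G and C. Those of the 7 others held 7 to 23 CpG dinucleotides and 51.2% to 69.2% G and C. The median over all 32851 promoters was 6 CpG dinucleotides. The whole upstream stretch of Pcdh20 is given with its CCAAT match in capitals.
Pcdh20, chr14:88471397-88471646, minus strand: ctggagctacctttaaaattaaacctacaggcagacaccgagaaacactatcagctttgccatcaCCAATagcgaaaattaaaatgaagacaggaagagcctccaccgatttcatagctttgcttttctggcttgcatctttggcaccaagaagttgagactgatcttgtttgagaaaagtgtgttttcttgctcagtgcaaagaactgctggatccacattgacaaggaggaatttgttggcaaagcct

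β-Catenin reaches DNA through TCF/LEF factors, so their words AACAAAG, the closely related ATCAAAG, then TACAAAG and also TTCAAAG were searched on both strands of the same stretches. They stood before 2 of 8 members, Pcdh7 and Pcdh8, against 14.8% of all promoters. The matches are shown in capitals, the first as a reverse complement.
Pcdh7, chr5:57717834-57717864, plus strand: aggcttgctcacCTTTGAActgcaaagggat
Pcdh8, chr14:79771472-79771502, minus strand: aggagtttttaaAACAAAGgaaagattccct

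**Figure D2:**
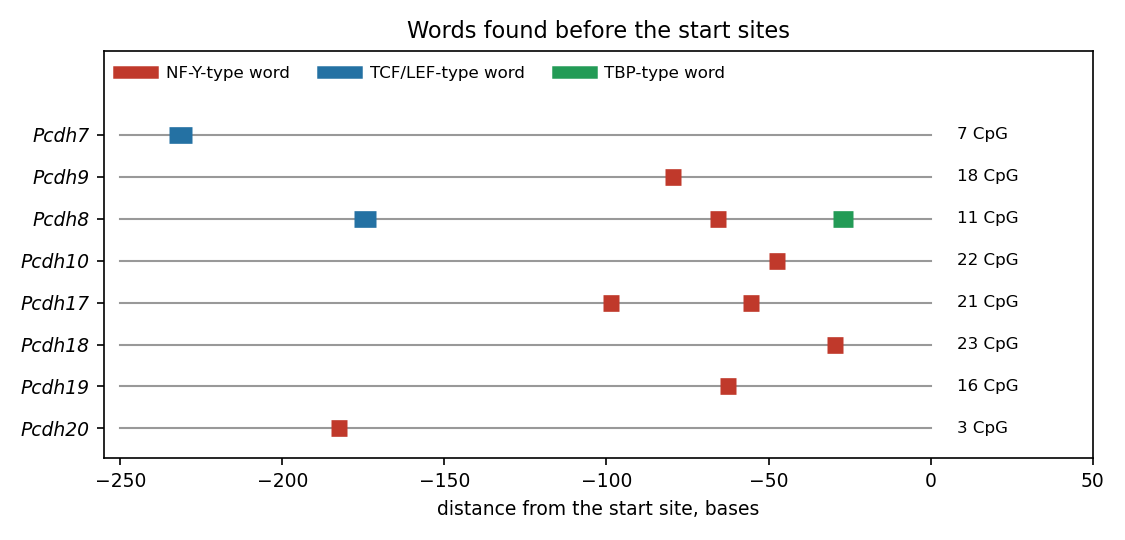
Positions of the searched words in the 250 bases before the start site of 8 members, with the distance from the start site in bases on the horizontal axis and the number of CpG dinucleotides at the right. NF-Y-type words (red) stand for CCAAT, TCF/LEF-type words (blue) for the 4 words given in the text, and the green mark for a TATAAA match in Pcdh8; the red mark of Pcdh20 is farther from the start site than those nearest it in the other genes.

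The comparison of overexpression with control cortex asks whether stabilised β-catenin in excitatory neurons goes with a different level of these transcripts. Only the overexpression group carried Nex-Cre, so stabilised β-catenin cannot be told apart from the Cre allele itself. No member passed the threshold, although 9 of the 10 group means were lower in overexpression cortex. The adjusted p of the authors' deposited table, whose test is not named, was 1 for every member and under 0.05 for 0% of 30152 tested genes. Before adjustment 0 of 10 members were under 0.05 in the authors' deposited table, against 0.534% of tested genes, and their p ran from 0.144 to 0.814. Of the 11645 genes averaging 100 scaled reads or more, 57.8% were lower in overexpression cortex. The median log2 ratio of overexpression over control means was -0.13 over the 10 members and -0.02 over those 11645 genes. Of the 10 members, 6 had a log2 ratio at or below -0.1, against 16.6% of those genes. The members' share was larger than this background, but the genes are related and share libraries, and no test of the list was made. All differences were small, with ratios between 0.871 and 0.963 for the 9 lower members. In bulk tissue, fewer cells of a type and less RNA per cell cannot be told apart.

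All 4 delta-1 members had lower means in overexpression cortex, with a median log2 ratio of -0.15. Pcdh11x, an X-linked gene that limits dendrite branching in mouse cortical neurons, averaged 587 scaled reads in Ovp cortex against 673 in Ctrl cortex, a log2 ratio of -0.20. This was the lowest ratio of the family, where the authors' deposited table has p = 0.144 before and 1 after adjustment. Pcdh9 averaged 3753 scaled reads in Ovp cortex against 4187 in Ctrl cortex, a log2 ratio of -0.16, for which the authors' deposited table gives p = 0.164. These 2 members had the lowest ratios of the subfamily. Pcdh1 averaged 4721 scaled reads in Ovp cortex against 5230 in Ctrl cortex, a log2 ratio of -0.15. Pcdh7 averaged 3642 scaled reads in Ovp cortex against 3781 in Ctrl cortex, a log2 ratio of -0.05, and was one of the members with a TCF/LEF-type word. For Pcdh7, 21.1% of its annotated exon bases are shared with the antisense gene 4932441J04Rik, and the strand setting of the counts is not given.

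All 5 delta-2 members also had lower means in overexpression cortex, with a median log2 ratio of -0.12. Pcdh17 averaged 1879 scaled reads in Ovp cortex against 2119 in Ctrl cortex, a log2 ratio of -0.17, for which the authors' deposited table gives p = 0.316. Pcdh8, also called arcadlin, is induced by neuronal activity and draws N-cadherin into the cell through the kinase Taok2. It averaged 557 scaled reads in Ovp cortex against 615 in Ctrl cortex, a log2 ratio of -0.14, for which the authors' deposited table gives p = 0.442. Its upstream stretch held both a TCF/LEF-type word and a CCAAT match. Pcdh19, an X-linked gene whose loss causes epilepsy in humans, averaged 1227 scaled reads in Ovp cortex against 1334 in Ctrl cortex, a log2 ratio of -0.12. The 2 smallest differences of the subfamily belonged to Pcdh18 and Pcdh10. Pcdh18, which binds the reelin pathway adaptor Dab1, averaged 214 scaled reads in Ovp cortex against 225 in Ctrl cortex, a log2 ratio of -0.07. Pcdh10 averaged 4021 scaled reads in Ovp cortex against 4178 in Ctrl cortex, a log2 ratio of -0.06.

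Pcdh20, which helps to place layer 4 neurons in the mouse somatosensory cortex, was the only member with a higher mean in overexpression cortex, a direction that turned when control library C was left out (log2 ratio -0.24). It averaged 580 scaled reads in Ovp cortex against 534 in Ctrl cortex, a log2 ratio of 0.12, for which the authors' deposited table gives p = 0.814. That p was the largest of the 10 members.

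Library values showed overlap between the groups for Pcdh8, Pcdh11x and Pcdh18. Every control mean of these genes matched a single combination of whole reads, while the overexpression means matched 2 to 6. The combination used is the only one with all libraries within 1.5-fold of the group mean. For the Y-linked gene Eif2s3y this rule picks 615, 488 and 363 scaled reads in overexpression libraries A, B and C. Its control libraries had 1176, 0 and 0, and Y-linked Uty had 2.82 or 11.3 in overexpression library B, depending on the combination. The rule can thus choose wrongly for a gene that varies widely between libraries. Pcdh11x had 588, 487 and 685 scaled reads in overexpression libraries A, B and C, and 695, 632 and 693 in control libraries A, B and C. Overexpression library B was the lowest of the 6, and library C lay between the control values. The difference was a log2 fold change of -0.21, with a 95% interval from -0.47 to 0.05, an unadjusted p of 0.0991 and an adjusted p of 0.9996 by limma. Without overexpression C it was -0.33 with an unadjusted p of 0.0131, and without overexpression B it was -0.08, and neither passed adjustment in limma. Without control library A, which held nearly all Y-linked reads of its group, the log2 fold change of this X-linked gene was -0.19. Y-linked reads were also present in overexpression cortex, with summed means of 1253 scaled reads for Ovp and 1098 for Ctrl. Each of the 4 Y-linked Ovp means matched more than 1 combination, including 1 with nearly all reads in library A. Leaving out control A may thus unbalance the groups for sex, and any part of sex was not tested. For Pcdh11x, a second combination within 2-fold of the overexpression mean had 340, 495 and 925 scaled reads in libraries A, B and C. It gave a log2 fold change of -0.32 by limma, with a 95% interval from -0.90 to 0.26.

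Pcdh8 had 637, 541 and 493 scaled reads in overexpression libraries A, B and C, and 670, 670 and 505 in control libraries A, B and C. Library C was the lowest of both groups, and the groups overlapped. The log2 fold change was -0.14, with a 95% interval from -0.42 to 0.15 and an adjusted p of 0.9996 by limma. By limma it was -0.27 without control C, with an unadjusted p of 0.0430 that did not pass adjustment, -0.24 without overexpression A, -0.07 without control A, -0.07 without control B and -0.05 without overexpression C. A second combination within 2-fold of the overexpression mean, 284, 1012 and 376 scaled reads in libraries A, B and C, gave -0.36 with a 95% interval from -1.12 to 0.41. The combinations used for Pcdh8 and Pcdh11x were taken for their smaller spread, which narrows their intervals. Pcdh18 had 200, 197 and 246 scaled reads in overexpression libraries A, B and C, and 233, 229 and 212 in control libraries A, B and C. Overexpression library C was the highest of all 6 and A and B the lowest. The log2 fold change was -0.07, with a 95% interval from -0.36 to 0.21 and an adjusted p of 0.999 by limma. It was -0.18 without library C of the Ovp group, -0.12 when control C was left out, and -0.03 or -0.02 when Ovp A or Ovp B was; without control A it was -0.05. By limma, 0% of 11534 genes passed after adjustment and 2.04% had p under 0.05 before it, with none of these 3 members among either. A miss of the threshold does not show equal levels.

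**Figure D3:**
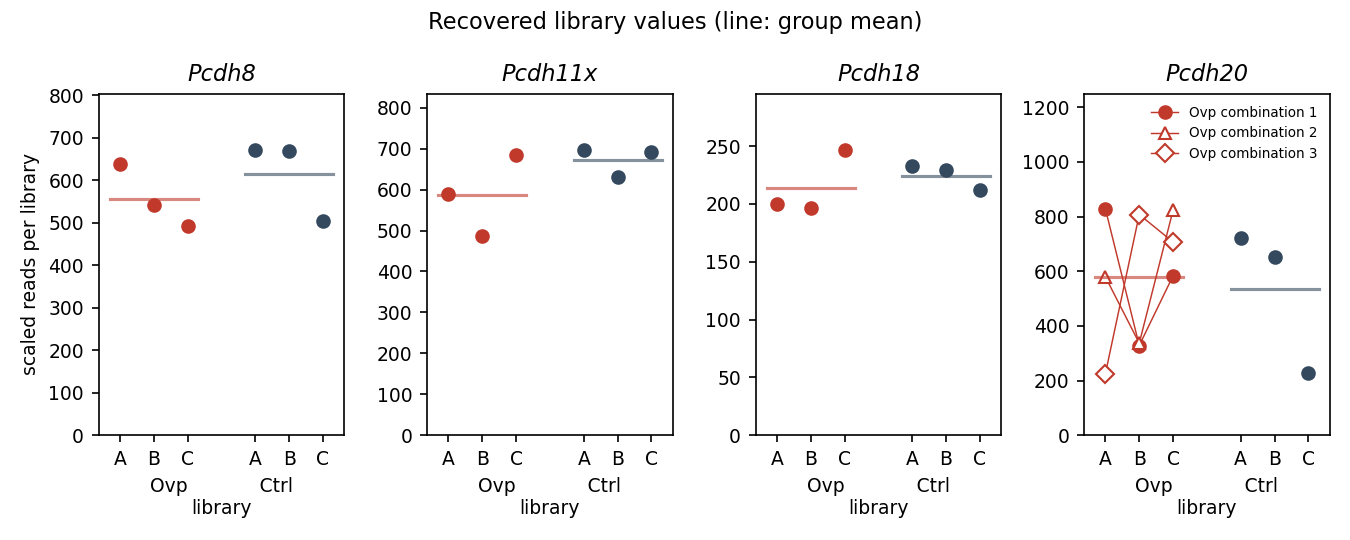
Recovered scaled reads in libraries A, B and C for 4 members, overexpression in red on the left and control in blue-grey on the right of each panel, with a horizontal line at the group mean. The groups overlap in every panel; for Pcdh20 the 3 combinations that match its overexpression mean are drawn with different markers, joined by lines to tell them apart.

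Pcdh20 varied more between libraries of a group than between the groups. In control cortex its mean matched a single combination, with 721, 652 and 228 scaled reads in libraries A, B and C. The highest control library was thus 3.16 times the lowest. Only 0.426% of 7281 genes with control means between 100 and 1000 had a spread as large, and the median spread was 1.17-fold. The overexpression mean of Pcdh20 matched 3 combinations. These were 828, 328 and 584, or 579, 337 and 824, or 226, 807 and 707 scaled reads in libraries A, B and C. In each of them the highest library was at least 2.44 times the lowest. The direction of the group difference rested on single libraries. Beside the reversal without control C, the log2 ratio was 0.40 without control A. Without 1 overexpression library it ran from -0.23 without A to 0.40 without B for the first combination, from -0.22 without C to 0.39 without B for the second and from -0.20 without B to 0.50 without A for the third.

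Genes known for hippocampal expression were, like Pcdh20, low in control library C. They were chosen after that control pattern had been seen, so the likeness is a description, and which Pcdh20 combination holds in overexpression cortex is not known. In all, 0.343% of the 7281 genes had a library C value under 0.5 times both other control values, and the same held for 0.124% with library A and 0.0412% with library B. Pcdh20 was among them, beside Prox1 and Dsp of the dentate gyrus, Fibcd1 of field CA1, Lct and Npy2r. They also held genes outside the hippocampal list, such as Shisa6 with 1029, 1362 and 375 scaled reads in control libraries A, B and C, named here after its values were seen. Summed over the 8 of 9 listed hippocampal genes with a single combination in control cortex, libraries A, B and C had 4632, 3740 and 1223 scaled reads. Dsp, a desmosome gene, had 340, 216 and 9.93 scaled reads in control libraries A, B and C. Fibcd1 had 1010, 974 and 315 scaled reads in control libraries A, B and C. Library C was the lowest for each of the 8. In overexpression cortex 4 of the 9 had a single combination, namely C1ql2, Spink8, Iyd and Npy2r. Their sum was 523, 104 and 329 scaled reads in overexpression libraries A, B and C, against 377, 364 and 101 in control libraries A, B and C. The order A, C, B of overexpression libraries is also that of the first combination for Pcdh20 and not of the others. None of the 9 genes was at 0 in either group. The summed group means of the 9 were 3828 in overexpression and 4306 in control cortex, and their part in the Pcdh20 values was not tested. Of 3 layer 4 genes, also chosen after these values were seen, 2 had library values and Rorb had none. Those 2 differed less between the control libraries. Rspo1 had 52.9, 58.3 and 46.3 scaled reads in control libraries A, B and C, and Scnn1a had 127, 100.4 and 116. Between the groups, 2 of the 3 layer 4 genes were lower and 1 higher in overexpression cortex. The log2 ratio was -0.61 for Rspo1, -0.32 for Scnn1a and 0.09 for Rorb. For Rspo1 the authors' deposited table gives p = 0.0379 before adjustment, and none of the 3 passed adjustment. Their summed means of 1722 scaled reads for Ovp and 1672 for Ctrl are mostly Rorb, at 1596 for Ovp and 1505 for Ctrl.

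**Figure D4:**
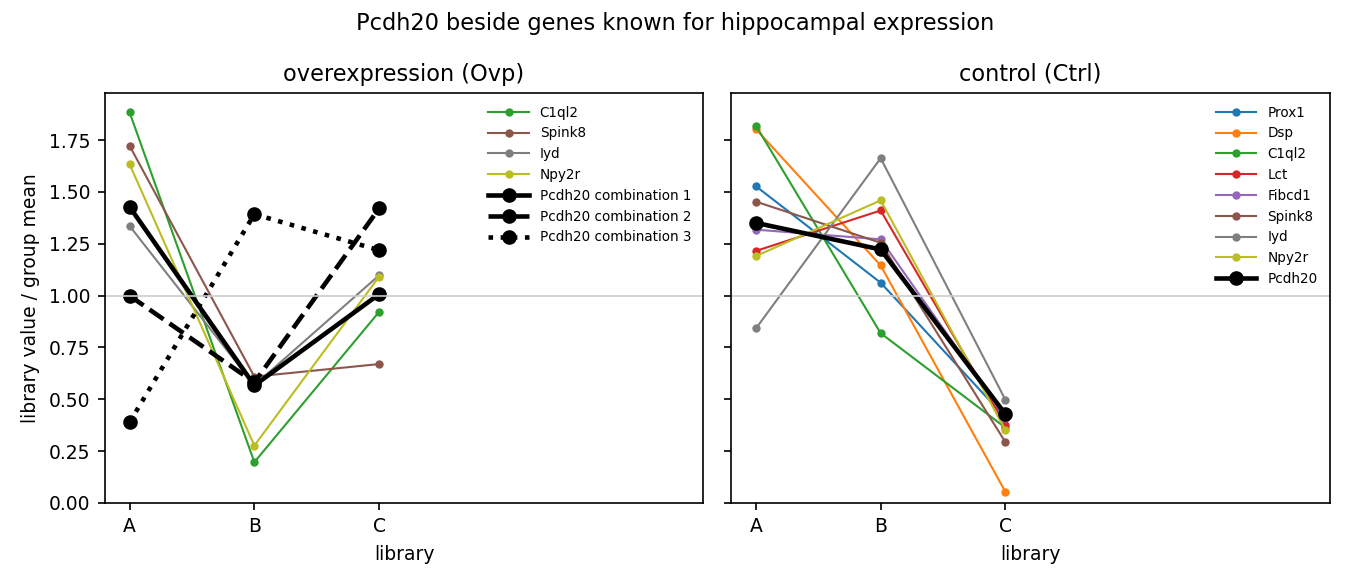
Library values divided by the group mean for Pcdh20 (thick black) and for genes known for hippocampal expression (thin), in overexpression cortex on the left and control cortex on the right; lines only join the values of 1 gene. In control cortex Pcdh20 and all 8 thin lines are lowest in library C, and in overexpression cortex the 4 thin lines are highest in library A and lowest in library B.

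Markers of cell types did not all differ in one direction, and none passed the threshold. Astrocyte, microglia, endothelial, and mural and meningeal markers were each mixed in direction. The 2 oligodendrocyte precursor markers were both lower, with a median log2 ratio of -0.11. Of 4 choroid plexus markers 3 were lower and 1 higher, with a median of -0.40. The lowest of them, Ttr at -1.25, had 76.4, 713 and 79.4 scaled reads in control libraries A, B and C. The 6 inhibitory neuron markers were all lower in overexpression cortex, with a median log2 ratio of -0.16 and summed means of 11987 scaled reads for Ovp and 13237 for Ctrl. The 5 excitatory neuron markers were also all lower, with a median of -0.06 and summed means of 100770 for Ovp and 106057 for Ctrl. The 4 oligodendrocyte markers were all higher, with a median of 0.10 and summed means of 114736 for Ovp and 106689 for Ctrl. The 4 striatal markers were all higher too, with a median of 0.36 and summed means of 2251 for Ovp and 1773 for Ctrl. Control library A was low for the 3 of them with library values. Without it the log2 ratio was 0.17 against 0.50 for Adora2a, 0.09 against 0.36 for Drd2 and 0.01 against 0.18 for Drd1. Without control C the log2 ratio was 0.73 for Adora2a, 0.69 for Drd2 and 0.35 for Drd1. Without control B it was 0.66, 0.37 and 0.19 for the same genes. None of these markers was at 0 in either group. Their part in the lower means of the 9 members was not tested.

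Partners of the delta protocadherins had medians closer to 0 than the members. Of 9 genes of the WAVE complex, 7 were lower and 2 higher, with a median log2 ratio of -0.03 and 0 past the threshold, and 5 were lower when centred on the median of the 11645 genes. Nckap1, the subunit bound by Pcdh10, averaged 9633 scaled reads in Ovp cortex against 10379 in Ctrl cortex, a log2 ratio of -0.11. Cyfip2 averaged 15442 scaled reads in Ovp cortex against 16012 in Ctrl cortex, a log2 ratio of -0.05. Of 12 other partners and regulators, 9 were lower and 3 higher, with a median of -0.02 and 0 past the threshold, but with the same centring 6 of 12 were lower and the median was 0.00164. Taok2, the kinase that Pcdh8 engages, averaged 3705 scaled reads in Ovp cortex against 3811 in Ctrl cortex. Mef2c, of the transcription factor family that acts upstream of Pcdh10 in synapse removal, averaged 22954 scaled reads in Ovp cortex against 26028 in Ctrl cortex, a log2 ratio of -0.18. Ctnnb1 itself averaged 6391 scaled reads in Ovp cortex against 7574 in Ctrl cortex, a log2 ratio of -0.25, where the authors' deposited table has p = 0.0304 before and 1 after adjustment. Cdh2, which encodes N-cadherin, averaged 3075 scaled reads in Ovp cortex against 2972 in Ctrl cortex, a log2 ratio of 0.05.

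By count of genes, other long cadherins did not share the direction of the members. Of 16 such genes, 5 were lower and 11 higher in overexpression cortex, with a median log2 ratio of 0.03 and 0 past the threshold. Their summed means were lower, at 57201 scaled reads for Ovp and 60312 for Ctrl. Celsr3, a seven-pass cadherin of axon tracts, averaged 2977 scaled reads in Ovp cortex against 2504 in Ctrl cortex, a log2 ratio of 0.25 where the authors' deposited table has p = 0.0691 before and 1 after adjustment. Pcdh15, a protocadherin of hair cells that stands outside the delta family, averaged 686 scaled reads in Ovp cortex against 676 in Ctrl cortex. Clstn1, a calsyntenin, averaged 28951 scaled reads in Ovp cortex against 31776 in Ctrl cortex, a log2 ratio of -0.13. The 57 clustered protocadherins with a value above 0 had a median of -0.21, with 49 lower and 8 higher. No difference between these lists was tested.

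**Figure D5:**
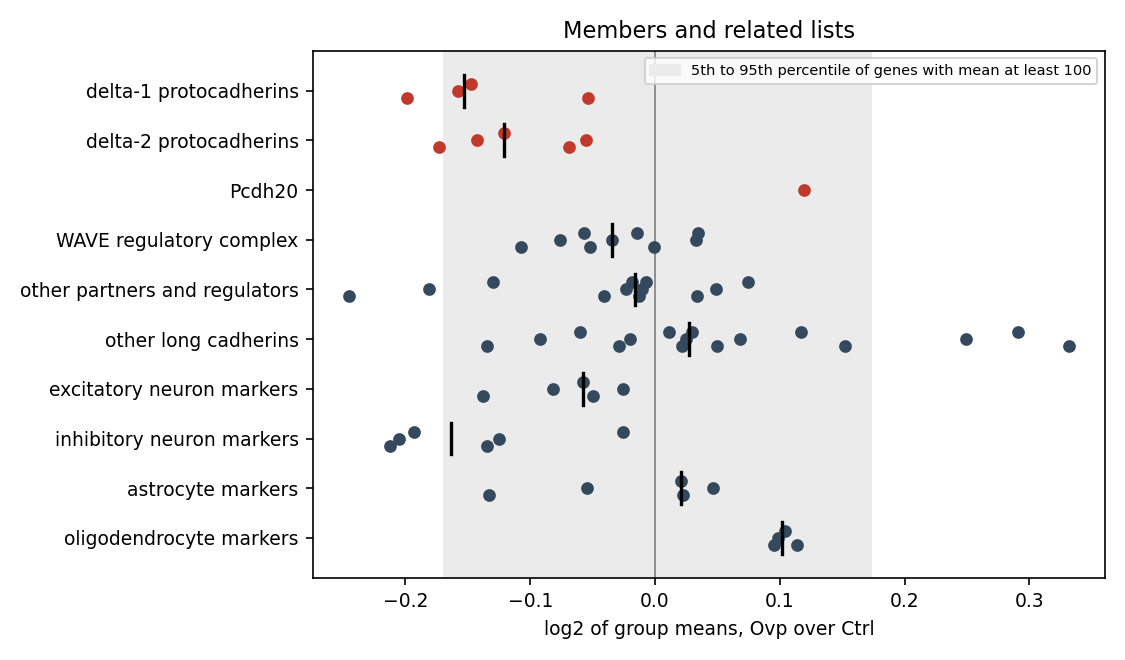
Log2 ratio of group means, overexpression over control, for the members (red) and related lists (blue-grey), 1 point per gene, with a black bar at the median; the grey band spans the 5th to 95th percentile, -0.17 to 0.17, of the 11645 genes averaging 100 scaled reads or more. Members other than Pcdh20 lie between -0.20 and -0.05, and Pcdh20 lies at 0.12.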

How the data were processed

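RNA-seq libraries had been made with the Illumina TruSeq kit from Trizol-extracted RNA, per the labels' protocols. The submitters' processing notes list the aligners TopHat2 2.0.9 and Bowtie2 2.0.6. Not given in the sources used here are the build, annotation, counter, strand setting and test. The authors deposited 1 signal value per gene and group, a mean of scaled read counts. The authors deposited p-values before and after adjustment for each gene, and an adjusted p under 0.05 was the call. Log2 ratios were computed from the group means without a pseudocount.

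Group means up to 1000 were matched to whole reads of 3 libraries within their rounding to 10 significant digits. The scaling factors were 1.23, 1.06 and 0.966 in overexpression and 0.982, 0.926 and 0.907 in control libraries A, B and C. A combination was accepted if it was the only one, or the only one with every library within 2-fold of the group mean, which left Pcdh18 alone among the members. The limit of 1.5-fold, which added Pcdh8 and Pcdh11x, was chosen after seeing the data. Up to a mean of 700, each control mean had a single combination, so the doubt lies with the overexpression values. Recovered values were tested on the log2(value + 1) scale in limma 3.58.1 (R 4.3.3), whose trended variance was estimated over genes with a mean of at least 10. The scripts were tested on simulated data with a small spread between libraries, which does not test the choice of combination for genes that vary widely. The labels do not name separate animals, so p-values reflect the spread between libraries only, which may in part be technical. Y-linked genes summed to 3290, 1.08 and 3.31 scaled reads in control libraries A, B and C, so these 3 libraries did not all come from the same animal. Exon lengths came from GENCODE M21. The members and lists were chosen with earlier results of these data known, and the hippocampal, layer 4 and Y-linked genes after seeing library values. Named genes were all members and, as examples, genes of the partner and long cadherin lists; the promoter words were also chosen after reading the sequences.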

Additional observations from a re-analysis of the deposited data

How the results depend on the processing

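No paired analysis was possible because the deposited columns are group means and the recovered libraries carry no replicate number. The count of 9 lower members and the sign of their median could not change with a pseudocount of 1 or 10, added alike to both means. Both also held with equal column totals and with centring on the median of well-expressed genes. The 2 scalings shifted log2 ratios by 0.03 and 0.02. The smallest member difference was larger, a log2 ratio of -0.05 for Pcdh7, so these scalings could not change the count either. Centring turned the median of the 12 other partners and regulators to 0.00164, with 6 in place of 9 lower, and the construction of that scaling is the cause. With 1 library left out, the log2 ratio of Pcdh20 ran from -0.24 (without control C) to 0.50 (without overexpression A, combination 3). It was also below 0, at -0.23 without overexpression A for combination 1, at -0.20 without B for combination 3, at -0.22 without C for combination 2 and at -0.047 without C for combination 3. With 1 library left out, log2 fold changes by limma ran from -0.18 to -0.02 for Pcdh18, from -0.27 to -0.05 for Pcdh8 and from -0.33 to -0.08 for Pcdh11x. With the other combination within 2-fold of the group mean they were -0.36 for Pcdh8 and -0.32 for Pcdh11x. In the limma fits run on recovered libraries 0 members were called, and without control A 1 gene that is no member was. The 6 members without library values could not be examined without single libraries.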
